A study of Mus musculus with 30 samples.

Results

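The aldehyde dehydrogenases and monoamine oxidase A were followed as a set of 9 genes: Aldh2, Aldh1b1, Aldh1l2, Aldh3a2, Aldh6a1, Aldh7a1, Aldh9a1, Aldh18a1 and Maoa. They were chosen by name, as the rows of the count files whose Ensembl identifier carries 1 of these symbols, out of 56941 genes in all. The cells were mHypoA-2/12, a clonal line from adult mouse hypothalamus immortalized with SV40 large T antigen. Cultures received cannabidiol (CBD), a non-intoxicating compound of Cannabis sativa, at 0.325, 0.75, 1.5 or 3 µM for 6 h or 24 h, and vehicle cultures received the solvent alone. The solvent, 0.1% DMSO, was present in all 10 groups. Each group had 3 libraries, numbered A1 to A30 over the series. Beyond these numbers the labels do not say how the 3 cultures of a group were related, so p-values measure the spread between these libraries.

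Most aldehyde dehydrogenases use NAD or NADP to oxidize reactive aldehydes to acids. Substrates differ among family members, from acetaldehyde and lipid peroxidation products to intermediates of amino acid, folate and carnitine metabolism. Monoamine oxidase A sits in the outer mitochondrial membrane and deaminates serotonin and noradrenaline, which yields an aldehyde, ammonia and hydrogen peroxide. The aldehyde is then cleared by aldehyde dehydrogenases, Aldh2 among them, and in the hypothalamus this pair of steps ends the life of monoamine transmitters.

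Libraries were made with a 3′-end kit that gives about 1 fragment per transcript, so levels are counts scaled to the reads on genes (CPM) and were not divided by gene length. Reads on genes ranged from 1839621 to 4420675 per library. Aldh2 was the most abundant member at a mean of 292 CPM over the 30 libraries. Maoa followed at 49.2 CPM, Aldh7a1 at 35.2 CPM, Aldh9a1 at 20.8 CPM, Aldh1l2 at 16.4 CPM and Aldh3a2 at 11.1 CPM. Aldh18a1 averaged 6.06 CPM and Aldh6a1 3.25 CPM. Aldh1b1, the closest relative of Aldh2, had 20 reads over all 30 libraries and at most 5 in any of them, too few for a test. Ranges of neighbours in this order overlapped, except that the lowest Aldh2 library, at 181 CPM, stood above the highest Maoa library, at 76.0 CPM. Outside the set, Aldh16a1 was the most abundant relative at a mean of 35.7 CPM, a level between those of Maoa and Aldh7a1.

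**Figure D1:**
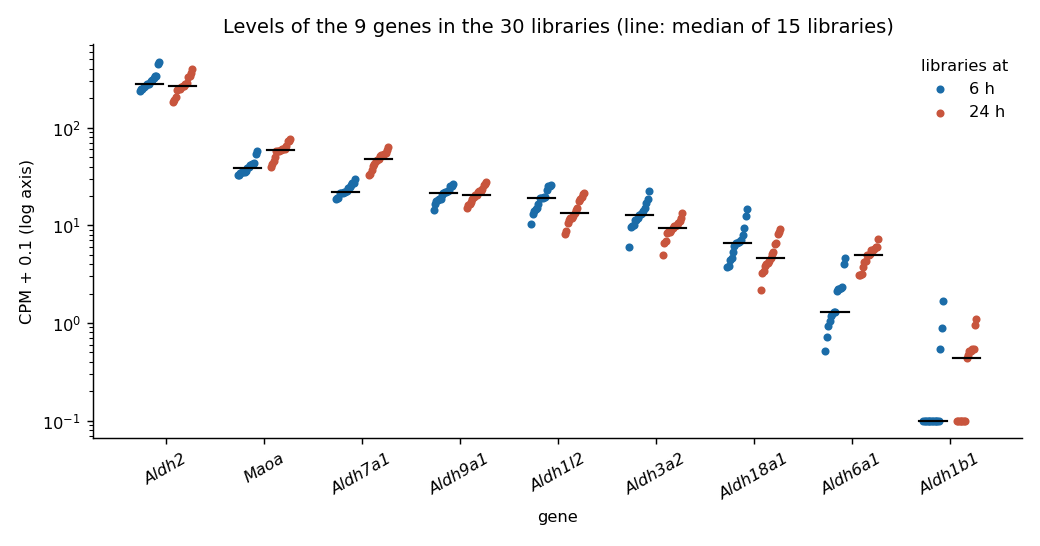
Level of each of the 9 genes (CPM + 0.1, log axis) in the 15 libraries at 6 h and the 15 at 24 h, with a line at each median. Aldh2 lies above all other members in every library, Aldh1b1 is at or near 0, and the Aldh7a1 points at 24 h sit higher than those at 6 h. The Aldh6a1 points of 6 h and 24 h overlap, with the higher median at 24 h.

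Of the genes that make, move or store monoamines, several had no or few reads in the line. Th, Dbh, Pnmt, the dopamine transporter gene Slc6a3 and the histamine-degrading Hnmt had no read in any library. Ddc averaged 0.0306 CPM, Tph1 0.364 CPM and Tph2 0.0557 CPM. Slc18a2, which loads monoamines into vesicles, was read in every library, at 5 to 34 reads and a mean of 6.73 CPM. Maob, the other monoamine oxidase, was present at 4.30 CPM. Among markers of the labelled tissue, the 10 neuron genes summed to between 94.7 and 141 CPM, mostly Tubb3 and Map2. Nefl, Stmn2 and Uchl1 averaged 16.5, 15.4 and 11.8 CPM and Syt1 2.01 CPM. Rbfox3 averaged 0.589 CPM, Syp 0.210 CPM, Elavl4 0.0961 CPM and Snap25 0.0406 CPM. The feeding peptide genes Npy, Agrp and Pomc were each under 0.2 CPM and Cartpt had no read. The 7 mesenchymal genes, Col1a1, Vim and Acta2 among them, summed to between 8323 and 10804 CPM.

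Aldh2 (chr5:121566027-121593824, minus strand, GRCm38), the mitochondrial enzyme that removes acetaldehyde, was the 1 member called for any difference among the CBD doses. At 24 h it was highest at 3 µM, with 402, 267 and 364 CPM in the 3 libraries. The 0.325 µM libraries were the lowest, at 181, 208 and 249 CPM. The next dose, 0.75 µM, gave 285, 279 and 245 CPM, and 1.5 µM gave 194, 248 and 267 CPM. Vehicle libraries had 258, 331 and 341 CPM, so each of the 3 libraries at 0.325 µM lay below every vehicle library, and those at 3 µM overlapped with vehicle. In such bulk libraries, fewer cells that express a gene and less RNA per cell cannot be told apart. The 4 doses differed from one another (edgeR quasi-likelihood test, adjusted p = 0.054, where 1.93% of the 12118 genes tested at 24 h were called at an adjusted p below 0.1). That call was lost when the fit held the share of reads outside genes, and without A16 or A18 at 3 µM, A22 at 0.75 µM or A25 or A26 at 0.325 µM. Earlier results of these data had set the 3 µM group of 24 h apart, and its comparison with the lower doses was chosen with them known. Adjusted p-values of that comparison, here and below, are therefore not those of a test planned beforehand. Aldh2 was 1.46-fold higher at 3 µM than at the mean of the 3 lower doses (log2 difference 0.55, SE 0.12, adjusted p = 0.0108), a comparison in which 10.5% of genes were called. Without library A16, the highest of the 3 µM group, that difference was 0.41 with an adjusted p of 0.16. Only 68 of all genes were then called, against 1275 with it.

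Against vehicle, no CBD dose moved Aldh2 past the threshold at 24 h. The largest of the differences was at 0.325 µM, where Aldh2 was at 0.68 of the vehicle level (log2 difference -0.55, 95% interval -0.86 to -0.24, adjusted p = 0.291). From the next dose to the highest the differences were -0.21, -0.39 and 0.16, the last with an interval of -0.14 to 0.47. The 0.325 µM difference was called when no filter on low counts was used (adjusted p = 0.0192) and when library A27 was left out (adjusted p = 0.09).

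At 6 h the vehicle libraries differed widely in Aldh2. Vehicle libraries A1 and A2 had 472 and 450 CPM, the highest levels of the series, while vehicle library A3 had 249 CPM. The 12 CBD libraries at 6 h lay between 240 and 337 CPM with a median of 282 CPM, below A1 and A2 and on both sides of A3. With all 3 vehicle libraries, the 4 doses gave log2 differences of -0.46 to -0.37 and the smallest adjusted p was 0.462. Taking the 4 doses together the difference was -0.43 (95% interval -0.72 to -0.15, adjusted p = 0.228), which was called when no filter on low counts was used (-0.41, adjusted p = 0.0485). Without A3, Aldh2 was lower at each of the 4 doses, by -0.61 to -0.71 with adjusted p from 0.0161 to 0.0874, and by -0.68 with the doses together (adjusted p = 0.00187). Leaving out A3 also raised the calls over all genes, from 0.2%, 0.0749%, 0.0999% and 0.05% in order of rising dose to 0.876%, 1.4%, 0.406% and 1.1%, and from 0.749% to 2.47% for the doses together. Without A1 in place of A3, the difference for the doses together was -0.27 and was not called.

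**Figure D2:**
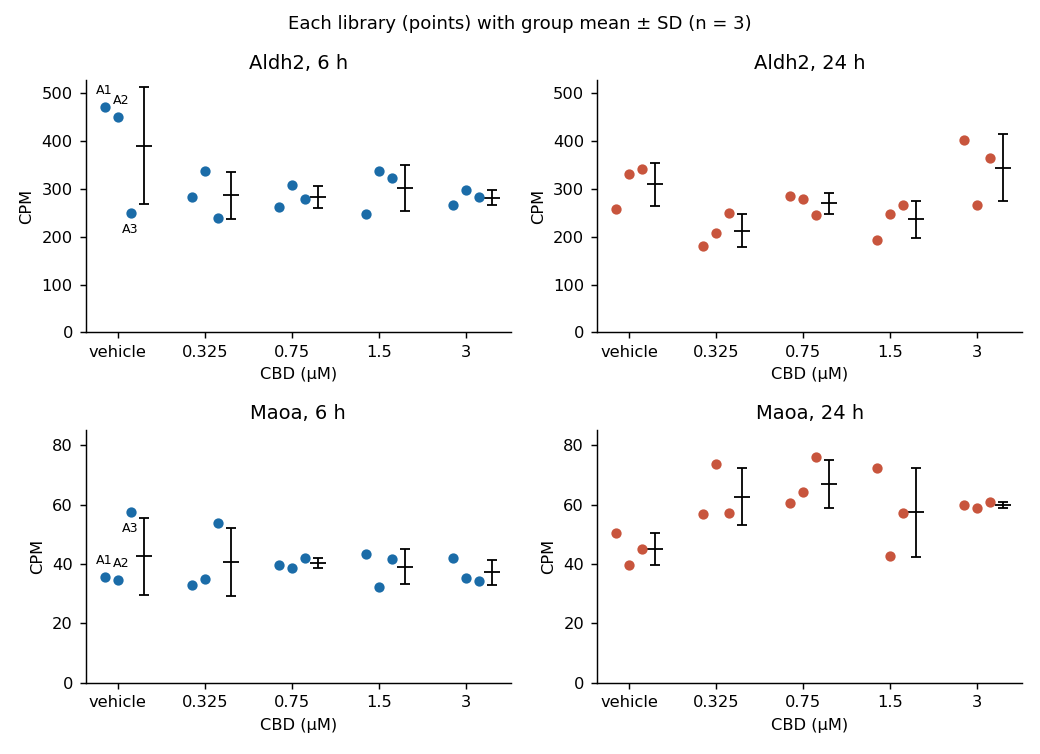
Aldh2 (top) and Maoa (bottom) in CPM against CBD dose at 6 h (left) and 24 h (right), with 1 point per library and the group mean ± SD (n = 3) beside the points; the 6 h vehicle libraries are named. A3 lies apart from A1 and A2 in both genes, low for Aldh2 and high for Maoa, and at 24 h Aldh2 is highest at 3 µM while most Maoa points with CBD lie above the vehicle points.

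At 24 h the groups with the highest Aldh2 also had the highest share of reads outside annotated genes. That share averaged 21.4% ± 0.714 in vehicle and 21.4% ± 0.487 at 3 µM (SD, n = 3). It was 19.4% ± 0.266, 19.4% ± 0.608 and 19.7% ± 0.560 at 0.325, 0.75 and 1.5 µM. Within the 3 µM group the order was the opposite, since A16 had the lowest share (20.8%) with 402 CPM and A17 the highest (21.7%) with 267 CPM. At 6 h the share was 21.4% in A1 and 20.8% in A2 against 17.9% in A3. The group means at that time did not follow Aldh2, as 0.75 µM had a mean share of 20.2%, above that of vehicle, and an Aldh2 level of 283 against 390 CPM. A1 and A2 were also the shallowest libraries, with 1839621 and 1919498 reads on genes against 3574833 for A3. With this share as a covariate, the Aldh2 difference between 3 µM and the lower doses kept its size at 0.54 but had an adjusted p of 0.369, and 30 genes were called in all. Because the share separated the same groups, its part in the 24 h difference cannot be told apart from that of dose.

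**Figure D3:**
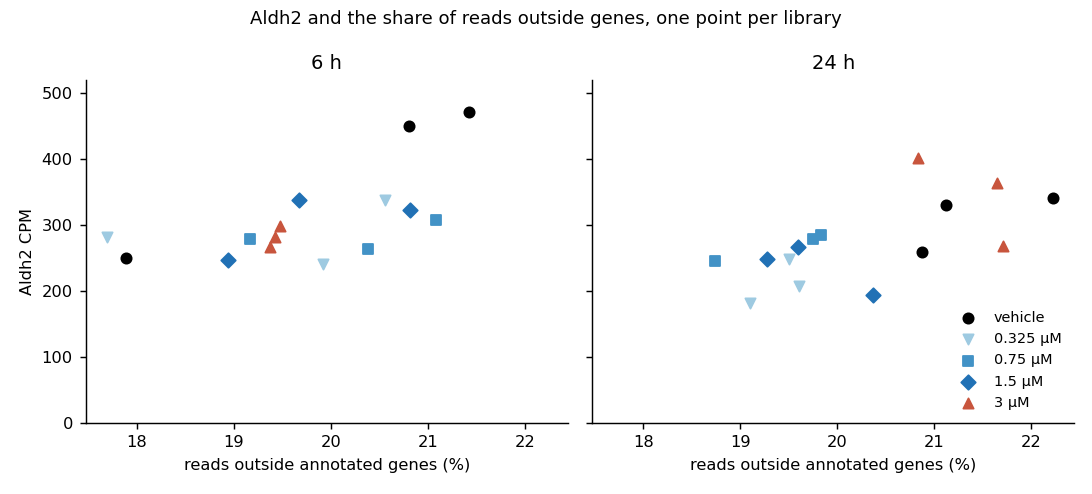
Aldh2 level (CPM) against the share of reads outside annotated genes (%), 1 point per library, at 6 h (left) and 24 h (right), with symbols for vehicle and the 4 CBD doses. At 24 h the vehicle and 3 µM libraries lie to the right of the lower doses, and at 6 h A3 is the vehicle point at 17.9% and 249 CPM.

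Maoa (chrX:16619698-16687818, plus strand) showed its largest differences with CBD at 24 h, and none passed the threshold. The 3 vehicle libraries had 50.5, 39.8 and 45.1 CPM. The 0.325 µM libraries had 56.9, 73.7 and 57.2 CPM and the 0.75 µM libraries 60.4, 64.3 and 76.0 CPM. The 1.5 µM libraries spread widest, with 72.4, 42.6 and 57.2 CPM, and those of 3 µM least, with 59.8, 58.8 and 60.9 CPM. Of the 12 CBD libraries, all but the one at 42.6 CPM lay above every vehicle library. The log2 differences were 0.46, 0.55, 0.33 and 0.41 from the lowest dose to the highest (SE 0.17 each), with adjusted p from 0.371 to 0.694. These doses were each measured against the same 3 vehicle libraries. With the doses together Maoa had a 1.35-fold higher level (log2 difference 0.44, 95% interval 0.15 to 0.72, adjusted p = 0.465), and leaving out any library at 24 h kept the log2 difference between 0.36 and 0.53.

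For Maoa no difference between doses was found at 24 h, where the test among the 4 doses missed the threshold (adjusted p = 0.866) and the difference of 3 µM from the lower doses was -0.04 (95% interval -0.33 to 0.25). At 6 h Maoa stood at 35.6, 34.7 and 57.5 CPM in vehicle, and the 12 CBD libraries ranged from 32.3 to 53.8 CPM with a median of 39.3 CPM. Their intervals reached from -0.67 to 0.35 on the log2 scale. The change with CBD at 24 h was larger than that at 6 h by 0.59 (95% interval 0.14 to 1.04), which did not pass the threshold (adjusted p = 0.541). Library A3 enters this value, which was 0.28 without it. Over all genes, 0.235% were called for that difference between times, and none of the 8 members tested.

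In counts over the set, none of the 28 pairs of a tested gene and a dose at 6 h and none of the 32 at 24 h was called against vehicle by edgeR, and DESeq2 called none either. At an unadjusted p under 0.05 there were 5 such pairs at 6 h, for Aldh2 and Aldh18a1, and 6 at 24 h, for Aldh2, Maoa and Aldh1l2. That is 17.9% and 18.8% of the pairs, beside 7.26% to 8.8% of all genes per dose at 6 h and 7.34% to 9.16% at 24 h, and the doses of a time share their vehicle libraries. Few genes of any kind were called at single doses at 24 h, namely 0.066%, 0.0825%, 0.0413% and 0.00825% in order of rising dose. For the doses together at 24 h, 0.107% of genes were called and none of the 8 members tested, of which 2 had an unadjusted p under 0.05, as did 6.73% of all genes. No member differed among doses at 6 h, where 0% of genes were called. The set's median log2 difference for the doses together was -0.24 at 6 h, against -0.02 over all genes, and -0.05 at 24 h, against -0.01. The 6 h median leans on the vehicle libraries that all members share. Without A3 the differences were -0.68 for Aldh2, -0.53 for Aldh1l2, -0.27 for Aldh18a1 and -0.14 for Aldh7a1. Those of Aldh3a2, Aldh9a1 and Maoa were then 0.01, 0.07 and 0.16.

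**Figure D4:**
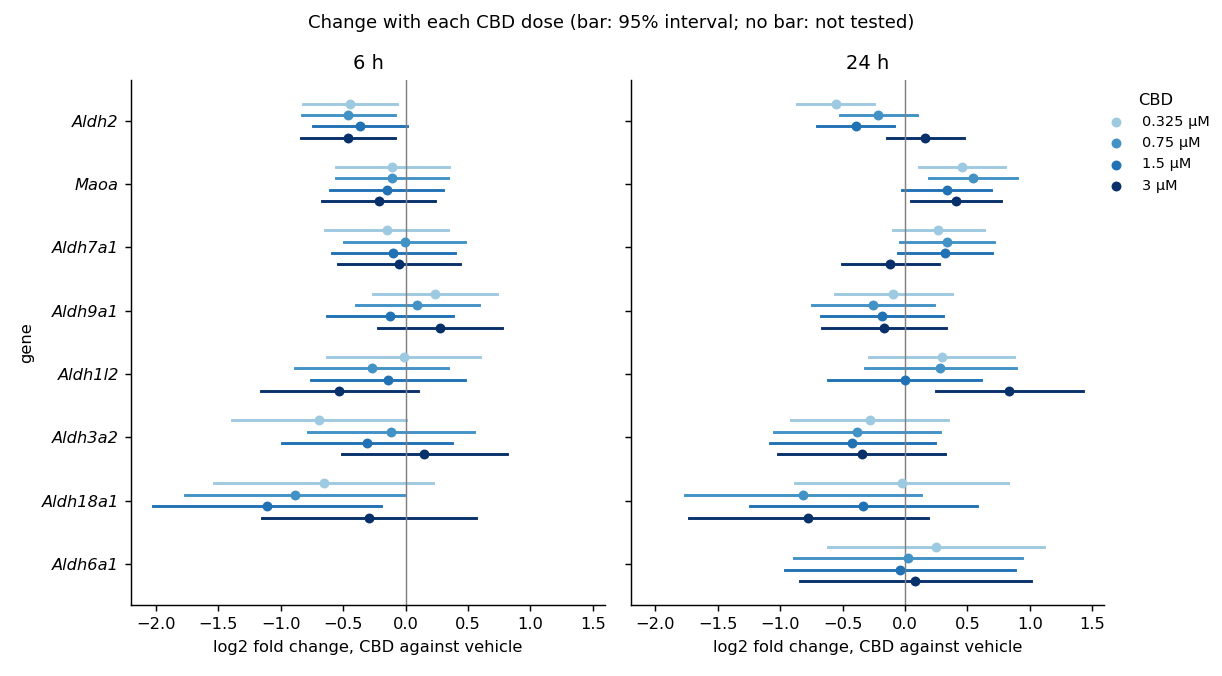
Log2 fold change of each tested member at each CBD dose against vehicle at 6 h (left) and 24 h (right), with bars for 95% intervals; Aldh1b1 was not tested and Aldh6a1 only at 24 h. Most intervals include 0; those that do not belong to Aldh2 and Aldh18a1 at 6 h and to Aldh2, Maoa and Aldh1l2 at 24 h, and none of these passed the adjusted threshold.

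Aldh1l2 (chr10:83487450-83534140, minus strand), the mitochondrial enzyme that turns 10-formyltetrahydrofolate into tetrahydrofolate, was the other member called at 3 µM against the lower doses. That is 2 of 8 members tested at 24 h, 25% beside 10.5% of all genes. The edgeR test among the 4 doses at 24 h did not call Aldh1l2 (adjusted p = 0.343). At 24 h its 3 µM libraries lay between 18.5 and 21.4 CPM. Vehicle libraries had 11.9, 14.3 and 8.08 CPM, all below these. The 9 libraries at the lower doses lay between 8.60 and 19.5 CPM and overlapped with the 3 µM group. Aldh1l2 rose 1.56-fold at 3 µM against the lower doses (log2 difference 0.64, SE 0.23, adjusted p = 0.0918), a call that 10 of the 15 single-library omissions at 24 h removed. It was also lost with no filter (adjusted p = 0.12) and with the out-of-gene share held (0.53, adjusted p = 0.685). Against vehicle the 3 µM difference was 0.83 (95% interval 0.25 to 1.42, adjusted p = 0.507). At 6 h the 3 µM libraries were at 10.1, 18.8 and 14.6 CPM, and the difference was in the other direction at -0.53 (adjusted p = 0.769). The last exon of Aldh1l2 overlaps D10Wsu102e on the opposite strand within the final 500 bases of the annotated gene, and the strand setting of the counting is not given in the sources used here, so reads of the pair may be mixed or dropped.

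Aldh18a1 (chr19:40550257-40588463, minus strand) makes the precursor of proline and ornithine from glutamate. Its vehicle libraries at 6 h had 7.78, 6.94 and 14.7 CPM, the last again A3. The 12 CBD libraries at 6 h ranged from 3.60 to 12.2 CPM with a median of 6.20 CPM. The difference for the doses together was -0.74 (95% interval -1.41 to -0.07, adjusted p = 0.424), and -0.27 without A3. At 24 h the level was 6.53 ± 2.56 CPM in vehicle and between 3.74 and 6.43 CPM in the 4 dose groups, with 5 to 34 reads per library, and the difference was -0.49 (95% interval -1.18 to 0.21).

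Aldh7a1, on chromosome 18, oxidizes α-aminoadipic semialdehyde in lysine breakdown and also betaine aldehyde. At 24 h the 3 lower doses averaged 50.7 ± 11.2, 53.5 ± 2.12 and 52.9 ± 5.67 CPM, against 41.7 ± 9.57 CPM in vehicle and 38.5 ± 6.47 CPM at 3 µM (SD, n = 3). The 3 µM libraries had 36.4, 45.7 and 33.3 CPM, and the groups overlapped only in that the highest of these exceeded the lowest of the 9 lower-dose libraries, at 42.6 CPM. The difference of -0.43 between 3 µM and the lower doses was not called (adjusted p = 0.109). DESeq2, no filter and a filter of at least 10 counts in every library put it just inside the threshold (adjusted p from 0.0942 to 0.0998), while with the out-of-gene share held it was -0.16 with an adjusted p of 0.866. At 6 h the dose groups were between 21.6 and 23.7 CPM against 24.0 ± 1.88 CPM in vehicle.

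Aldh9a1 (chr1:167349991-167368532, plus strand), which makes a carnitine precursor, varied least. Its 10 group means lay between 17.6 and 23.3 CPM. The difference for the doses together was 0.12 at 6 h (95% interval -0.28 to 0.52) and -0.17 at 24 h (-0.55 to 0.20). Aldh3a2 (chr11:61223417-61267464, minus strand), the fatty aldehyde dehydrogenase of the endoplasmic reticulum, was at 14.3 ± 3.65 CPM in vehicle at 6 h and 11.1 ± 2.51 CPM in vehicle at 24 h. With the doses together it differed by -0.24 at 6 h (-0.77 to 0.29) and by -0.36 at 24 h (-0.86 to 0.14). Aldh6a1 (chr12:84430717-84451004, minus strand), which acts on methylmalonate semialdehyde in valine breakdown, differed by 0.08 at 24 h (-0.63 to 0.79). Aldh1b1 (chr4:45799022-45804604, plus strand) had no read in 19 of the 30 libraries.

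Between vehicle at 6 h and vehicle at 24 h, Aldh7a1 and Aldh6a1 rose and Aldh1l2 fell, 3 of 8 members tested. That is 37.5%, beside 26.7% called of all 12790 genes tested over the 30 libraries, 12.5% higher and 14.2% lower at 24 h. Aldh7a1 rose 1.76-fold (log2 difference 0.81, SE 0.21, adjusted p = 0.00443), from 25.6, 24.5 and 21.9 CPM to 51.9, 40.1 and 33.0 CPM. Every library at 24 h, CBD or vehicle, had at least 33.0 CPM and none at 6 h had more than 29.7 CPM, so the times did not overlap.

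Aldh6a1 was low, with 2 to 4 reads per vehicle library at 6 h and 11 to 21 at 24 h. It rose 3.44-fold (log2 difference 1.78, 95% interval 0.45 to 3.12, adjusted p = 0.0502), from 1.37 ± 0.745 to 4.58 ± 2.18 CPM, and the adjusted p was 0.283 when the fit held the out-of-gene share. Without A2, A3 or A30 the call was also lost. With CBD the level was 1.51 to 2.18 CPM in the 4 dose groups at 6 h and 4.41 to 5.40 CPM at 24 h. Aldh1l2 fell to 0.55 of its 6 h level (log2 difference -0.85, SE 0.30, adjusted p = 0.04), from 25.6, 25.1 and 13.1 CPM to 11.9, 14.3 and 8.08 CPM, where A3 at 13.1 CPM lies within the 24 h range. Leaving out A1, A2 or A30 put its adjusted p between 0.155 and 0.191, and it was 0.106 with only the vehicle groups fitted.

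**Figure D5:**
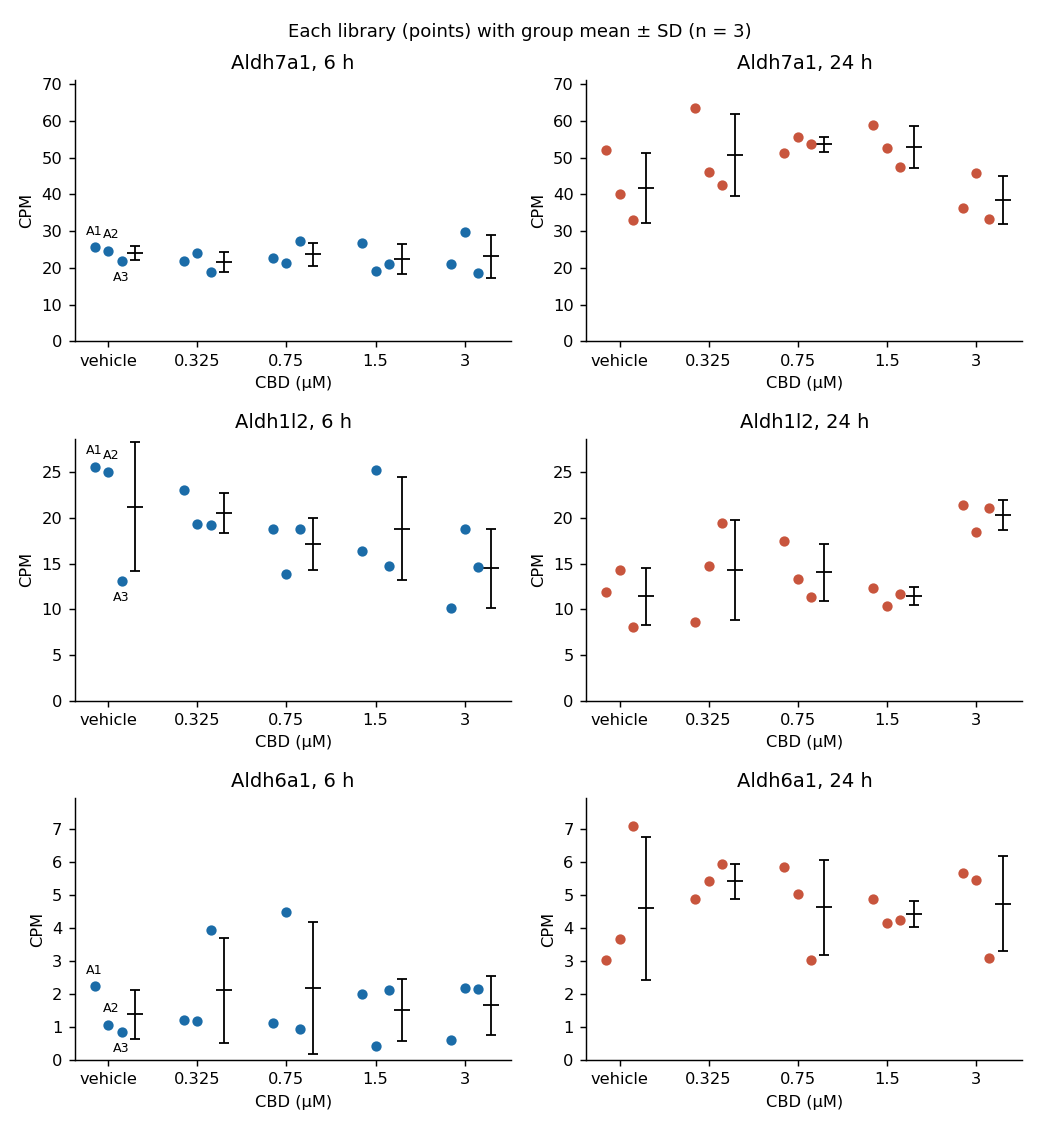
Aldh7a1, Aldh1l2 and Aldh6a1 in CPM against CBD dose at 6 h (left) and 24 h (right), with 1 point per library and the group mean ± SD (n = 3) beside the points; the 6 h vehicle libraries are named. All Aldh7a1 libraries at 24 h lie above those at 6 h, Aldh1l2 in vehicle is lower at 24 h, and its 3 µM points at 24 h lie near 20 CPM.

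The other members were not called between the vehicle groups. Aldh2 differed by -0.33 (95% interval -0.69 to 0.03, adjusted p = 0.197), which became -0.56 with an adjusted p of 0.0168 without A3 and -0.48 with 0.0368 when the fit held the out-of-gene share. Maoa differed by 0.06 (-0.35 to 0.46). Aldh9a1 was at 0.25, Aldh3a2 at -0.39 and Aldh18a1 at -0.64, with adjusted p from 0.29 to 0.487.

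Genes of the pathways around the members were described by lists. Against vehicle edgeR called none of the 68 list genes tested at 6 h or the 70 at 24 h at any dose, with 1 to 8 at an unadjusted p under 0.05 per dose, while DESeq2 called 1, Mmut at 0.75 µM at 6 h. Among folate enzymes, 5 of 10 tested fell between vehicle at 6 h and at 24 h and none rose, beside 14.2% of all genes lower, with a list median of -0.51 against -0.03 over all genes. They included 3 mitochondrial partners of Aldh1l2, namely Mthfd2 (from 313 to 181 CPM, log2 difference -0.79), Shmt2 (from 267 to 146 CPM, -0.87) and Mthfd1l (-0.61). The others were Shmt1 (-0.82) and Mthfd1 (-0.61). Adjusted p-values of the 5 genes ran from 0.000445 to 0.0436. The Mthfd1 call was lost when the fit held the out-of-gene share (-0.20, adjusted p = 0.518), without A3 (-0.14, adjusted p = 0.739), without A30 (-0.42, adjusted p = 0.246) and with only the vehicle groups fitted (adjusted p = 0.187). The other 4 were called in each of these.

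Between 3 µM and the lower doses at 24 h, where 10.5% of all genes were called, 3 of the 10 folate genes were called, Mthfd2 higher (0.52, adjusted p = 0.0154) and Mthfd1 (-0.61, adjusted p = 0.0404) and Mtfmt (-1.15, adjusted p = 0.0604) lower. With the out-of-gene share held none of the 3 was called, at 0.75 for Mthfd2 (adjusted p = 0.209), -0.06 for Mthfd1 (0.96) and -1.67 for Mtfmt (0.325). Without A16 none was called either, with adjusted p from 0.186 to 0.427 and Mtfmt at -0.75. The call for Mthfd1 was also lost without A18 (adjusted p = 0.151), and that for Mtfmt without A18, A21, A22 or A25 (0.101 to 0.105).

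Around Aldh6a1, 6 of 21 tested genes of branched-chain amino acid and propionate breakdown were called between the vehicle groups, which is 28.6% beside 26.7% of all genes, with a list median of 0.02. Those that rose were Mmut (methylmalonyl-CoA mutase, 1.10), Auh (0.85), Mcee (0.84), Ivd (0.83) and Hadha (0.35), and Bcat1, which starts the breakdown in the cytosol, fell by 0.71. The calls for Mcee, Ivd and Hadha were lost when the fit held the out-of-gene share (adjusted p from 0.109 to 0.28), with only the vehicle groups fitted (0.103 to 0.178) and without A3 (0.159 to 0.386, with Hadha at 0.21). Each was lost without further single libraries as well, Mcee without A1 or A28, Ivd without A2 or A30 and Hadha without A29 or A30, while Mcee was 1.32 without A2. Mmut, Auh and Bcat1 kept their calls in these. At 3 µM against the lower doses 2 of the 21 were called, Echs1 at 0.53 (adjusted p = 0.0267) and Hibadh at -0.82 (adjusted p = 0.0996), beside 10.5% of all genes. With the out-of-gene share held they were at 0.41 (adjusted p = 0.583) and -1.51 (0.267), and without A16 at 0.54 (0.157) and -0.43 (0.574). Hibadh kept its call in 4 of 15 single-library omissions. In lysine breakdown, the pathway of Aldh7a1, 3 of the 8 listed genes could be tested, with Phykpl the highest at 15.5 CPM, and none was called between the vehicle groups.

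Of 13 tested genes of alcohol and aldehyde metabolism, Cbr1 (1.30) and Akr1a1 (0.35) rose and Adh7 (-1.31) and Esd (-0.78) fell between the vehicle groups, 30.8% beside 26.7% of all genes. The Akr1a1 call was lost without A1 (adjusted p = 0.104) or A28 (0.219) and with only those groups fitted (0.118). The reductases Cbr1 and Akr1a1 and the dehydrogenase Adh7 handle carbonyls and alcohols beside the aldehyde dehydrogenases. Akr1a1 and Esd were the most abundant genes of this list at 373 and 281 CPM. Of 6 other aldehyde dehydrogenases tested, Aldh4a1, which completes proline breakdown, rose by 1.03 and Aldh3b1 by 0.85. Without A3 these were 0.68 (adjusted p = 0.122) and 0.68 (0.272), and Aldh3b1 was also lost without A1 or A30, with no filter and with only the vehicle groups fitted. Phyh (0.80) was the 1 gene called of 4 tested among sources of fatty aldehydes, where Sgpl1 was the most abundant at 73.9 CPM. The Phyh call was lost without A1, A3, A29 or A30 (adjusted p from 0.109 to 0.149). Slc25a20 alone could be tested of the carnitine and GABA list, and it was not called.

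Among 7 tested monoamine genes, Gch1, the first step of tetrahydrobiopterin synthesis, fell by 1.16 between the vehicle groups and Qdpr, which recycles that cofactor, fell by 0.39. The Qdpr call was lost without A1, A2, A28 or A30 (adjusted p from 0.108 to 0.191), with no filter (0.217) and with only the vehicle groups fitted (0.157). At 24 h, Spr, which completes tetrahydrobiopterin, was higher at 3 µM than at the lower doses (log2 difference 0.45, adjusted p = 0.0207), at 269.7 ± 22.2 CPM against 189 to 217 CPM. It was not called when the fit held the out-of-gene share, with an adjusted p of 0.437, or without A16 (0.135) or A18 (0.133).

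Genes most like Aldh2 and Maoa over the 30 libraries were taken by the Pearson correlation of log2 CPM, as a description without a test, since they were picked as the highest of 12789 genes. The libraries share times, depth and composition, so values are given within each time as well. For Aldh2 the closest were Swi5, Metrn and Gm2000, with r from 0.93 to 0.94, from 0.91 to 0.94 within 6 h and from 0.93 to 0.96 within 24 h. Without A1 and A2 these were 0.90 to 0.91. For Maoa they were Tgfb2, Ablim1 and Lcn2, with r from 0.80 to 0.81, but from 0.31 to 0.70 within 6 h and from 0.27 to 0.61 within 24 h, so much of that likeness lay between the times.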

How the data were processed

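RNA of 30 cultures was prepared with the QuantSeq 3′ FWD kit. Per the study's methods and the submitters' notes, reads were trimmed, aligned with STAR 2.7.5c to GRCm39 and counted per gene with HTSeq 1.99.2, and the authors deposited 1 file of raw counts per library. Each file also held a count of reads in no gene, 17.7% to 22.2% of uniquely mapped reads, which stayed out of library sizes and tests.

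Libraries of 1 time were fitted together with edgeR 4.0.16 (R 4.3.3; filterByExpr, TMM, quasi-likelihood F test), which tested 12012 genes at 6 h and 12118 at 24 h, and all 30 were fitted for time and for the difference between times (12790 genes). P-values were adjusted over all genes tested (Benjamini-Hochberg) and called below 0.1, the level of the study. CPM used TMM factors of the 30 libraries, and intervals are 95% intervals of the fit. Replicate pairs differed by more than counting error (chi-square per gene 2.17 to 12.0 over 30 pairs). Alternatives were DESeq2 1.42.0, RLE factors, no filter, at least 10 counts in every library, a covariate for the out-of-gene share, only the groups compared, and omission of each library. The fits were tested on simulated data, with changes larger than most member differences here and set only in genes with more reads than Aldh6a1 or Aldh18a1. That simulation does not show how the fits do for smaller changes or lower counts.

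Positions are from GENCODE M21 (GRCm38) and differ from the build of the counts. Members, lists and the comparison of 3 µM with the lower doses at 24 h were chosen with earlier results of these data known. Named are the 9 members and, from each list, the highest genes by mean CPM and the called genes, of which some are not reported here. The similarity rule took the 3 genes with the highest r.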

Additional observations from a re-analysis of the deposited data

How the results depend on the processing

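Among counts of called members, 0 at 6 h against single doses became 4 without vehicle library A3 (range over omitted libraries 0 to 4), and 0 at 24 h became 1 with no filter on low counts (range over omissions 0 to 1, the 1 without A27 at 0.325 µM). For the 4 doses together at 6 h, 0 became 1 (Aldh2) with no filter (range over omissions 0 to 1). For any difference among doses at 24 h, 1 became 0 with a covariate for the out-of-gene share (range 0 to 1, lost without A16, A18, A22, A25 or A26). For 3 µM against the lower doses at 24 h, 2 became 0 with that covariate (range 0 to 3). Between the vehicle groups, 3 became 1 with only those groups fitted, where Aldh6a1 was not tested (range 1 to 3 over omissions). The count of 0 for the difference between times stayed at 0 in every alternative run, as did that for any difference among doses at 6 h. The cause of these moves was not tested.

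Signs turned for 4 values, none of them called. For the doses together at 6 h, Aldh3a2 ranged over omissions from -0.38 to 0.0094 and Maoa from -0.27 to 0.16, each positive only without A3. Aldh6a1 at 24 h ranged from -0.17 to 0.52, negative without A28 (-0.17) or A29 (-0.04). Maoa between the vehicle groups ranged from -0.064 to 0.38, negative without A1 (-0.05), A2 (-0.06) or A28 (-0.02). Over all genes, calls for 3 µM against the lower doses ranged from 68 without A16 to 2303 without A17, and were 30 with the covariate. Those against vehicle moved by more than 1.5 times for single doses: at 6 h, 24, 9, 12 and 6 calls from the lowest dose to the highest became 71, 48, 56 and 48 with DESeq2, and at 24 h 8, 10, 5 and 1 became 17, 40, 19 and 13. With no filter they were 151, 101, 106 and 92 at 6 h and 79, 79, 44 and 116 at 24 h. With the covariate they were 322, 119, 154 and 79, and 0, 0, 0 and 1, and with only the groups compared 0, 2, 0 and 3, and 11, 102, 16 and 1. For the doses together, 90 at 6 h became 263 with no filter and 329 with the covariate, and 13 at 24 h became 46 with no filter, 0 with the covariate and 29 with DESeq2. At 0.75 µM and 24 h, 10 became 6 with at least 10 counts required in every library. Among doses at 6 h, 0 became 15 with no filter and 1 with the covariate. Among doses at 24 h, 234 became 526 with DESeq2, 783 with no filter and 1 with the covariate, and for the difference between times 30 became 49 with DESeq2 and 87 with no filter. No paired analysis was possible because the groups share no replicate numbers. Depth limits Aldh1b1, Aldh6a1 and Aldh18a1, which had at most 5, 22 and 53 reads in any library.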
